A study of Rattus norvegicus with 30 samples.

Results

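The genes of glucose uptake and glycolysis were followed in RNA from primary rat hippocampal neurons. The cells had received cannabidiol (CBD), dimethyl fumarate (DMF) or its product monomethyl fumarate (MMF). They were taken by gene symbol from a list of 10 genes, namely Slc2a1, Slc2a3, Hk1, Hk2, Pfkp, Aldoa, Gapdh, Pgk1, Eno2 and Ldha. Of these, 9 were found among the 21993 genes that the tables name, and all 9 passed the filter on low counts in each comparison. No row has the symbol Gapdh. A row with the symbol LOC108351137 (ENSRNOG00000018630, chr4:157962343-157966235, mRatBN7.2) is described as glyceraldehyde-3-phosphate dehydrogenase, and its values are given as those of the Gapdh-described row, outside the 9 members. The neurons came from wild-type Wistar rats at embryonic day 18 and had been grown for 7 days in medium without added serum after plating. Cultures received 30 µM DMF, 30 µM MMF or their vehicle dimethyl sulfoxide (DMSO). Others received 6 µM CBD or its vehicle ethanol (EtOH), with each vehicle at 0.2%. RNA was taken after 4 h or 24 h, and each of the 10 groups has 3 libraries numbered 1 to 3, which makes 30 libraries. MMF is the product of DMF after hydrolysis of an ester, and so carries a free acid where DMF carries a methyl ester.

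Glucose enters cells through facilitative transporters. Slc2a1 encodes GLUT1, the carrier of the blood-brain barrier and of glia, and Slc2a3 encodes GLUT3, the high-affinity carrier of neurons. Hexokinases trap glucose as its phosphate. Phosphofructokinase and aldolase then prepare and split the sugar, and the later enzymes, from glyceraldehyde-3-phosphate dehydrogenase to enolase, harvest ATP and NADH before lactate dehydrogenase reduces pyruvate to lactate. Genes of glucose uptake and glycolysis are among the known targets of the hypoxia-inducible factor HIF-1, which binds DNA at a short core motif. The members were not sorted into targets and others.

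Promoter sequences from RefSeq (build GRCr8) were at hand for 8 of the 10 listed genes, each with 250 bases before and 50 bases after a transcription start. The HIF-1 core was searched as ACGTG on both strands. At least 1 promoter of 6 genes held it (a gene with several starts has several windows), namely Slc2a1, Hk1, Aldoa, Gapdh, Eno2 and Ldha, against 19.3% of all 33469 promoters. Such shares, here and below, are of single promoters and not of genes. For Hk1 and Aldoa, which have several windows, not every window held a match. The promoters of Slc2a1 and Ldha are shown because these genes carry much of what follows, with ACGTG or its reverse complement in capitals.
Slc2a1, chr5:138002272-138002571, plus strand: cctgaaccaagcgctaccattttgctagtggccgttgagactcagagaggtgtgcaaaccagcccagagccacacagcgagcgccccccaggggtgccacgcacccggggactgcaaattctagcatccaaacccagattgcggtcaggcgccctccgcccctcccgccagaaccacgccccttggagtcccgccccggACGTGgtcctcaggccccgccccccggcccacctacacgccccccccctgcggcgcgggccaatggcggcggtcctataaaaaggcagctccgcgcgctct
Ldha, chr1:106507842-106508141, plus strand: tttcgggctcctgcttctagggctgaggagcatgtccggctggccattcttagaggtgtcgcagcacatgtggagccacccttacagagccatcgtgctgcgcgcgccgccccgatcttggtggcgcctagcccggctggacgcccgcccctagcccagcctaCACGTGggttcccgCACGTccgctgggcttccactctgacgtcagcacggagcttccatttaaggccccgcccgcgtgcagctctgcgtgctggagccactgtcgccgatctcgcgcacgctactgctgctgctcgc
In the Slc2a1 promoter, 46 bases lay between the single match and the start. In the Ldha promoter, 2 overlapping matches on opposite strands formed CACGTG with 81 bases between it and the start, and 68 bases lay between another match, on the minus strand, and the start. A match is a description of the letters only, and its absence says only that the letters are not in the window. The windows of Hk2 and Pfkp held no such match. The related core GCGTG, found in 29.7% of all promoters, was present in 4 of the 8 genes, namely Slc2a1, Pfkp, Gapdh and Ldha. The antioxidant response element core TGACNNNGC, the motif of Nrf2, was present only in 2 of the 3 Aldoa windows, against 12.1% of all promoters. Slc2a3 and Pgk1 had no entry.

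Between 15108132 and 25367834 reads per library lay on genes. The labelled neurons were checked by their markers. Over the 10 neuron markers, the summed level of normalized counts on 1 scale for all libraries was between 92011 and 126552 per library. Astrocyte markers were present too, and the 8 of them summed to between 37114 and 96531. The astrocyte sum was between 37114 and 56223 in the 10 libraries of replicate number 3 and between 61986 and 96531 in the other 20 libraries. Oligodendrocyte lineage markers summed to between 9241 and 21507, and fibroblast and pericyte markers to between 813 and 3265. Microglia markers summed to at most 193 and endothelial markers to between 130 and 256. Of the 6 endothelial markers, 5 had a row. Cldn5 and Cdh5 had no row or stayed under 3 counts in each library. In bulk RNA, fewer cells of a type and less RNA per cell cannot be told apart. Libraries of the same number deviated together in every comparison, so each comparison is given both without and with the replicate number as a block, and the fit with the block is called the paired fit. A gene is called where the adjusted p-value of limma is under 0.05. The p-values measure the spread between these libraries, which the study describes as repeats of the experiment. Counts within a comparison are on the scale of its own table, so the same library can differ slightly between comparisons.

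The levels of Slc2a3, Hk1, Pfkp and Eno2 varied little over the groups, while Slc2a1, Hk2, Pgk1 and Ldha varied more. Between the lowest and the highest group mean, Hk1, the hexokinase of brain that binds to mitochondria, differed 1.22-fold. The neuronal transporter Slc2a3 differed 1.29-fold, the phosphofructokinase Pfkp 1.35-fold and the neuronal enolase Eno2 1.42-fold. For Slc2a1 the ratio was 2.48, for Pgk1 2.06, for Ldha 2.55 and for the inducible hexokinase Hk2 4.55. The lowest group mean of Hk2 was in EtOH 24 h at 139.9 ± 5.40 normalized counts (SD, n = 3) and the highest in DMSO 4 h at 636 ± 298. That of Slc2a1 was lowest in EtOH 4 h at 580.2 ± 135 and highest in CBD 24 h at 1438 ± 859.7. Ldha was lowest in CBD 24 h at 8349 ± 1073 and highest in MMF 24 h at 21276 ± 6166. When the groups were ordered by their mean, neighbouring groups overlapped for all members with these exceptions. EtOH 24 h lay below EtOH 4 h and CBD 4 h below DMF 24 h for Hk2, DMSO 24 h below DMF 24 h for Pfkp, and CBD 24 h below EtOH 24 h for both Pgk1 and Ldha.

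Replicate number 3 was the lowest library in most groups for some members. It was the lowest in 9 of 10 groups for Slc2a1 and Ldha, in 8 for Pgk1 and in 6 for Hk2, and in 9 for the Gapdh-described row. For Hk1 and Eno2 it was the lowest in only 1 group. The mean over the 10 groups of Ldha was 15339.9 for number 1, 17047 for number 2 and 10955 for number 3. For Slc2a1, these means were 1205 for number 2 and 785 for number 3. The astrocyte sum was also lowest in number 3, as given above, and its part in these levels was not tested.

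**Figure D1:**
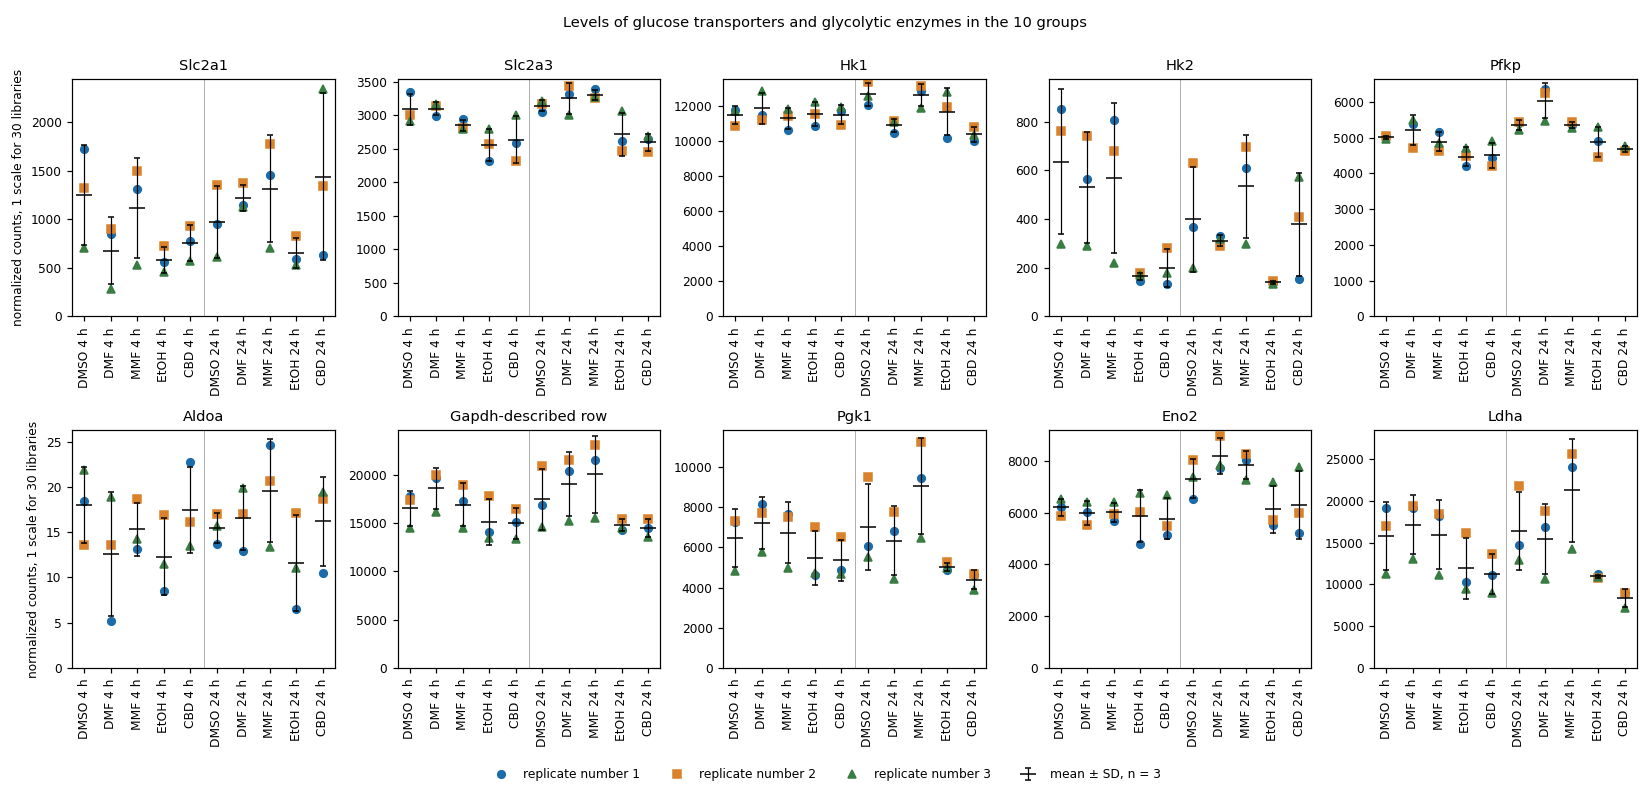
Normalized counts of the 9 members and the Gapdh-described row in the 10 groups, on 1 scale for all 30 libraries. Points are libraries, with a marker for each replicate number, and bars show the mean ± SD. Hk2 lies between 135 and 176 counts in the 6 EtOH libraries, and at 199 or above in all 6 DMSO libraries.

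Aldoa and Ldha need a caution. The Aldoa row (ENSRNOG00000052802, chr1:181402275-181406182) held between 5.21 and 24.6 counts per library. It lies wholly inside the annotated gene LOC103691235 (chr1:181402275-181417714), which had a median of 46.1 counts. The counting method for reads shared by both is not given in the sources used here, so Aldoa is uncertain. The Ldha span (ENSRNOG00000013009, chr1:97366021-97433472) holds Ldhc, with a median of 2.41 counts, and overlaps Tsg101, with a median of 1704 counts, against 13331 for Ldha. The other members had no overlapping gene. Their spans in mRatBN7.2 are chr5:132717196-132745416 for Slc2a1, chr4:155960946-156025472 for Slc2a3, chr20:30230486-30332131 for Hk1, chr4:115234509-115283530 for Hk2, chr17:63729780-63794018 for Pfkp, chrX:71271440-71287418 for Pgk1 and chr4:157572088-157580980 for Eno2.

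DMF was first compared with DMSO at 4 h. The transporter Slc2a1 was lower with DMF, and Pgk1 was slightly higher. None of the 9 members was called in the unpaired fit of limma, against 3.41% of all genes, and none had an unadjusted p under 0.05. DESeq2 and edgeR without the block called none either. In the paired fit, 2 of 9 were called, against 23.0% of all genes. Slc2a1 had 874, 932 and 293 normalized counts in DMF libraries 1 to 3 and 1785, 1367 and 730.2 in the DMSO libraries of the same numbers. DMF was the lower of the pair in all 3 numbers, while the groups overlapped, because DMSO library 3 was lower than DMF libraries 1 and 2. The log2 ratios within numbers were -1.03, -0.55 and -1.31. The log2FC of Slc2a1 was -0.96 ± 0.46 (SE) in the unpaired fit of limma (adjusted p = 0.296) and had an SE of 0.10 in the paired fit (adjusted p = 1.29e-05). This is a level 1.95-fold lower with DMF. Without DMF library 3, while its DMSO partner stayed in, the unpaired log2FC was -0.43.

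Pgk1, the phosphoglycerate kinase that makes the first ATP of the pathway, was the other member called in the paired fit. It had 8403, 7969 and 5944 counts with DMF and 7500.4, 7591 and 5009 with DMSO. DMF was the higher of each pair, by a log2FC of 0.16 ± 0.050 (SE, adjusted p = 0.0287 in the paired fit of limma and 0.706 in the unpaired fit). Without DMSO library 3, the unpaired log2FC of Pgk1 turned to -0.037, and leaving out each of the other 5 libraries gave 0.064 to 0.31. The Gapdh-described row had 20303, 20582 and 16713 counts with DMF and 18392, 18022 and 15033 with DMSO, a log2FC of 0.16 ± 0.048 (adjusted p = 0.0222 in the paired fit of limma and 0.520 in the unpaired fit). Its unpaired log2FC was 0.070 without DMSO library 3 and 0.26 without DMF library 3. Ldha, which converts pyruvate to lactate, had 19665, 19982 and 13475 counts with DMF and 19729, 17652 and 11711 with DMSO, and was not called in either fit of limma (paired adjusted p = 0.0988). Hk2 was not called either, with 579, 764 and 297 against 882, 787 and 308 counts and a paired adjusted p of 0.111 from limma. For Slc2a3, Hk1, Pfkp and Eno2, the log2FC was between -0.058 and 0.046, and none of the 4 was called. The groups did not overlap for 0 of 9 members, against 26.3% of all genes. The median log2FC was 0.00049 over the members and 0.0022 over all genes. With DMF at 4 h, the astrocyte markers summed to between 37114 and 73362, against 43099.5 to 74736 with DMSO. In the paired fit, 2 of 8 were called, Gfap with a log2FC of -0.47 and Sox9 with -0.18. Of the 10 neuron markers, 1 was called upward and 2 downward in the paired fit, among them the tubulin Tubb3 with a log2FC of -0.64, which was also called without the block. Of the 5 fibroblast and pericyte markers, 2 were called downward, Pdgfrb with -1.26 (also without the block) and Dcn with -0.37. Of the 7 oligodendrocyte lineage markers tested, 2 were called downward, Pdgfra with -0.64 and Sox10 with -0.54, and of the 3 endothelial markers tested 1, Kdr with -0.86. The endothelial sum was between 133 and 191 with DMF and between 167 and 250.2 with DMSO. The part of these markers in the change of Slc2a1 was not tested.

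At 24 h, DMF no longer went with a lower Slc2a1, and Hk1 was the member called in the paired fit. In the unpaired fit of limma, 0 of 9 members were called, against 3.97% of all genes, although 2 had an unadjusted p under 0.05. DESeq2 and edgeR without the block called 0 as well. In the paired fit, 1 of 9 was called, against 12.9% of all genes. Hk1 had 10020.2, 10644 and 10613 counts in DMF libraries 1 to 3 and 11545, 12778 and 11979 in the DMSO libraries. Each DMF library was below all DMSO libraries. The log2FC of Hk1 was -0.21 ± 0.048 (SE, adjusted p = 0.0166 in the paired fit of limma and 0.134 in the unpaired fit). Pfkp, which sets the pace of glycolysis, had 6081, 5978 and 5219 counts with DMF and 5168, 5204 and 4965 with DMSO, again without overlap. Its log2FC of 0.17 ± 0.052 was not called (adjusted p = 0.0605 in the paired fit of limma and 0.272 in the unpaired fit). Hk1 and Pfkp were the 2 of 9 members without overlap, against 22.8% of all genes. Eno2 was also higher in each pair, with a log2FC of 0.16 ± 0.050 and a paired adjusted p of 0.0599 from limma, which missed the threshold.

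Slc2a1 at 24 h had 1099.6, 1314 and 1077 counts with DMF and 909.9, 1295 and 585 with DMSO. The log2 ratios within numbers were 0.27, 0.020 and 0.88, all above 0, with the difference in number 3 much the greatest. The log2FC of 0.39 was not called (adjusted p = 0.0763 in the paired fit of limma). The 2 times were compared directly, as the effect of DMF at 24 h minus that at 4 h. For Slc2a1 this was 1.35 ± 0.31 on the log2 scale in the paired fit of limma (SE, adjusted p = 0.0101), with an adjusted p of 0.238 in the unpaired fit, and it was 0.81 without DMF library 3 of 4 h. It was the only 1 of 9 members called in the paired fit, against 13.2% of all genes, and 0 were called in the unpaired fit, against 4.12% of all genes. The pairs of Hk2 at 24 h went apart, with log2 ratios of -0.16, -1.13 and 0.67. Hk2 was nearly level over the 3 DMF libraries, at 315, 275 and 303 counts, while the DMSO libraries ranged over 351, 602 and 190.2. Pgk1 and Ldha were higher with DMF in number 1 and lower in numbers 2 and 3, with log2FCs of -0.15 and -0.093. The median log2FC of the members was 0.048, against -0.0065 for all genes. Among the astrocyte markers, the paired fit called 1 of 8 upward, Gfap with a log2FC of 0.76, and 4 downward, namely Aqp4, Slc1a3, Aldh1l1 and Sox9, while the sum was between 56223 and 96531 with DMF and between 49475 and 82404 with DMSO. Aldh1l1, with a log2FC of -0.65, was also called without the block. The oligodendrocyte lineage markers Pdgfra, Cspg4 and Sox10, which are 3 of 7 tested, were called lower in both fits, with log2FCs of -1.56, -1.13 and -1.36. Their summed list was between 11337 and 14312 with DMF and between 14346 and 17313 with DMSO. With the block, 3 of 10 neuron markers, Tubb3, Syt1 and Nefl, and the endothelial marker Kdr, 1 of 3 tested, were also called lower, with log2FCs of -0.49, -0.25, -0.29 and -0.59. The part of these markers in the results for the members was not tested.

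With MMF at 4 h, the members were near their vehicle levels. None of 9 was called by limma without the block, against 0% of all genes, and none in the paired fit, by edgeR or by DESeq2, nor did any have an unadjusted p under 0.05. The log2FCs were between -0.23 and 0.054. Slc2a1 had 1244, 1411 and 498 counts with MMF and 1631, 1247 and 666 with DMSO, lower in numbers 1 and 3 and higher in number 2. In the paired fit of limma, the 95% confidence interval of its log2FC was -0.47 to 0.045. The groups overlapped for all 9 members, so that 0 were apart, against 2.76% of all genes.

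After 24 h of MMF, 4 members were higher than with DMSO in each of the 3 numbers and were called in the paired fit, namely Slc2a1, Hk2, Pgk1 and Ldha. This was 4 of 9 members, against 1.38% of all genes, all upward. In the unpaired fit of limma, 0 of 9 were called, against 0.00707% of all genes. No member had an unadjusted p under 0.05 there, and DESeq2 and edgeR without the block called 0. Slc2a1 had 1458, 1788 and 707 counts with MMF and 957, 1361 and 615 with DMSO. In each number MMF was the higher, although the spread between the numbers was wider than the difference and the groups overlapped. The log2FC of Slc2a1 was 0.40 ± 0.065 (SE, adjusted p = 0.00599 in the paired fit of limma and 0.957 in the unpaired fit). Hk2, the hexokinase that rises with growth signals and low oxygen, had 610.4, 700.1 and 297 counts with MMF and 369, 632 and 199.7 with DMSO. Its log2FC was 0.48 ± 0.093 (paired adjusted p = 0.0174, limma).

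The later enzymes Pgk1 and Ldha were also higher with MMF at that time. Pgk1 had 9493, 11292 and 6493 counts with MMF and 6100.3, 9539.6 and 5546 with DMSO, a log2FC of 0.37 ± 0.062 (paired adjusted p = 0.00697, limma). Ldha had 24140.3, 25692 and 14245 counts with MMF and 14764, 21826 and 12886 with DMSO, a log2FC of 0.36 ± 0.075 (paired adjusted p = 0.0260, limma). For both, the log2 ratio was greatest in number 1, at 0.64 for Pgk1 and 0.71 for Ldha. All 4 changes moved in the unpaired fit when a DMSO or MMF library of number 2 or 3 was left out. Its partner of the same number stayed in. The log2FC was then 0.10 to 0.80 for Slc2a1, 0.057 to 0.88 for Hk2, 0.19 to 0.61 for Pgk1 and 0.20 to 0.63 for Ldha. The sign did not change. The paired fit was not run without a pair. The Gapdh-described row was also higher in each pair, with a log2FC of 0.19, and was not called (paired adjusted p = 0.0711, limma). Slc2a3, Hk1, Pfkp and Eno2 had log2FCs between -0.0065 and 0.10, with no call. The only member whose groups did not overlap was Slc2a3, which is 1 of 9 against 9.73% of all genes. No astrocyte marker was called, and their sum was between 47372 and 92546 with MMF. Of the 5 fibroblast and pericyte markers, 2 were called upward in the paired fit, Col1a1 with a log2FC of 1.36 and Col1a2 with 1.58. The sum of this list was between 1374 and 2005 with MMF and between 813 and 1259 with DMSO. Of the 7 oligodendrocyte lineage markers tested, 1 was called downward, Pdgfra with -0.23. The part of these markers in the results for the members was not tested. The difference of the MMF effect between 24 h and 4 h was called for 0 of 9 members in both fits of limma, against 0% of all genes without the block, and none had an unadjusted p under 0.05 without the block, so a difference between the times was not shown.

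**Figure D2:**
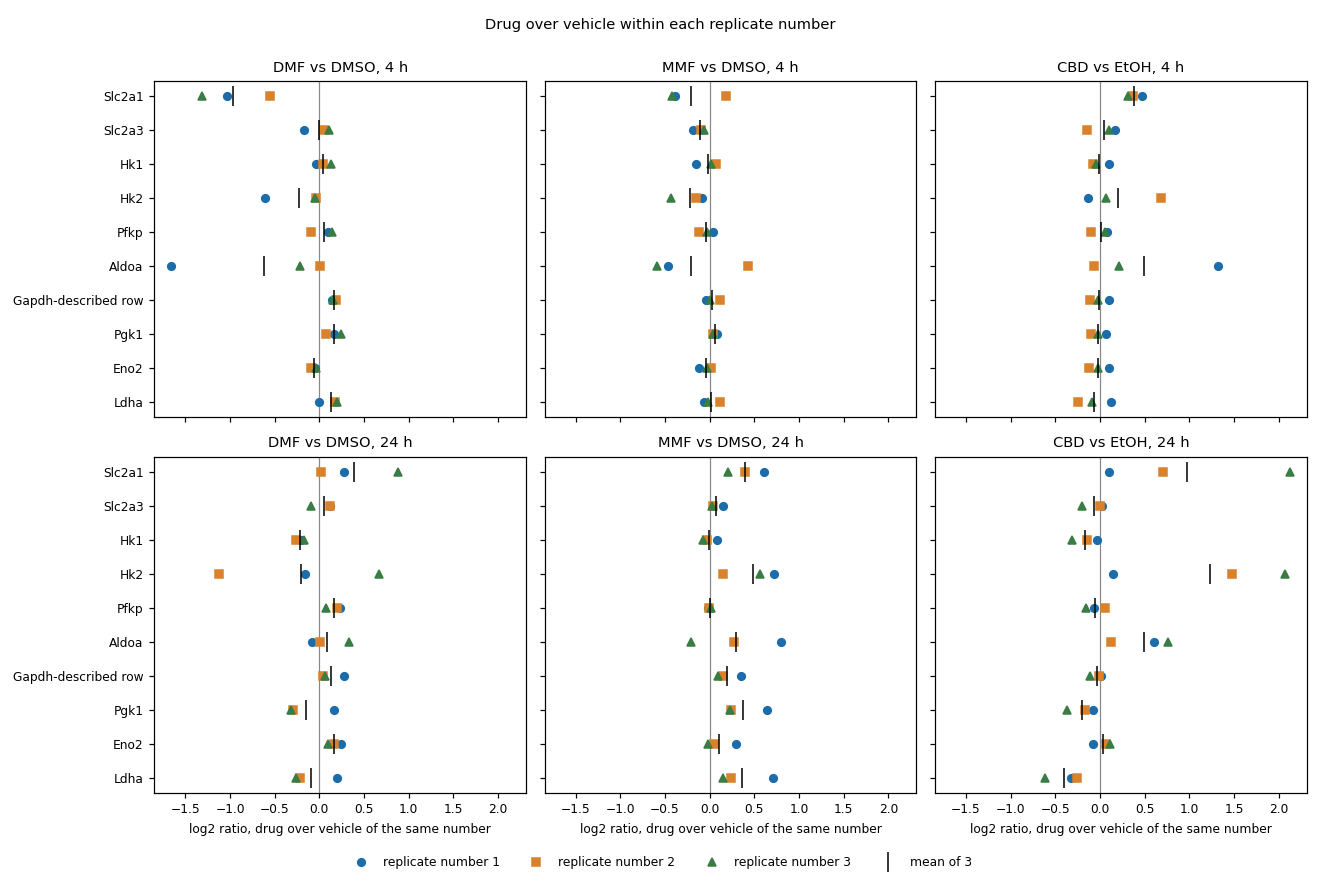
Log2 ratio within each replicate number, drug over vehicle, for the 9 members and the Gapdh-described row, in the 6 comparisons of a drug with its vehicle. Points are the 3 numbers and the vertical tick is their mean. For Slc2a1, the 3 points lie between -1.31 and -0.55 with DMF at 4 h and between 0.20 and 0.61 with MMF at 24 h.

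DMF and MMF were given at the same dose and times and were compared directly. At 4 h, Slc2a1 was lower with DMF than with MMF, and at 24 h Pgk1, Ldha and Hk1 were. In the unpaired fit of limma, 0 of 9 members were called at 4 h, against 1.61% of all genes, and 0 at 24 h, against 3.56%. At 24 h, 3 members had an unadjusted p under 0.05 and DESeq2 called 1, Hk2, while at 4 h both counts were 0, and edgeR without the block called 0 at both times. The paired fit called 1 of 9 at 4 h, against 23.6% of all genes, and 3 of 9 at 24 h, against 12.2%. At 4 h, Slc2a1 had 865, 921 and 289.7 counts with DMF and 1352, 1534 and 542 with MMF. The log2FC was -0.76, with a paired 95% interval of -0.91 to -0.61 (adjusted p = 1.49e-06, limma) and an unpaired one of -1.93 to 0.41. Without DMF library 3 the unpaired value was -0.22, and without MMF library 2 or 3 it was -0.48 or -1.23. At 24 h, Slc2a1 was lower with DMF in numbers 1 and 2 and higher in number 3, and the paired interval was -0.38 to 0.35.

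Pgk1 at 24 h had 7205, 8194 and 4673 counts with DMF and 10011, 11867 and 6833 with MMF. Within numbers the log2 ratios were -0.47, -0.53 and -0.55, nearly the same in each, and the paired interval of the log2FC was -0.63 to -0.40 (adjusted p = 2.14e-04, limma). Ldha had 17771, 19827 and 11276 counts with DMF and 25459, 26999 and 14993 with MMF, with log2 ratios of -0.52, -0.45 and -0.41 and a paired interval of -0.58 to -0.34 (adjusted p = 6.33e-04, limma). Without DMF library 3, the unpaired log2FC was -0.28 for Pgk1 and -0.21 for Ldha, without MMF library 2 it was -0.35 and -0.30, and without MMF library 3 Ldha reached -0.73. Hk1 was lower with DMF without overlap, at 11076, 11766 and 11713 against 13584, 13856 and 12541 counts, and its paired interval was -0.34 to -0.082 (adjusted p = 0.0414, limma). Hk2 just missed the threshold in the paired fit of limma (log2FC -0.69, adjusted p = 0.0516), and was called with the block in edgeR (adjusted p = 0.0496). Without MMF library 3, limma without the block called Hk2 as well. For the Gapdh-described row, the paired interval at 24 h was -0.19 to 0.050, and for Slc2a3 it was -0.16 to 0.10, both of which include 0. The groups did not overlap for 1 of 9 members at 4 h, Slc2a3, against 24.2% of all genes. At 24 h this held for 2, Hk1 and Pfkp, against 22.7%. Of the 8 astrocyte markers, the paired fit called 2 lower with DMF at 4 h, and 1 higher and 3 lower at 24 h. At 4 h it also called lower 2 of 7 oligodendrocyte lineage markers, Kdr and the neuron marker Tubb3, and the neuron marker Rbfox3 higher. Of the 5 fibroblast and pericyte markers, 2 were called higher at 4 h and 1 lower, Pdgfrb with a log2FC of -1.09, also called without the block. At 24 h, 3 of 8 oligodendrocyte lineage markers were called lower in both fits, Pdgfra with -1.33, Cspg4 with -0.98 and Sox10 with -1.30. With the block at 24 h, 3 of 10 neuron markers (Tubb3, Nefl and Slc17a7) and 3 of 5 fibroblast and pericyte markers were called lower, among them Col1a2 with -1.12, also called without the block. The part of these markers was not tested. These comparisons share their libraries with those against DMSO, and both fumarates were set against the same DMSO libraries.

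CBD was compared with EtOH. At 4 h, Slc2a1 was higher with CBD in each number, and no other member was called. In the unpaired fit of limma, 0 of 9 members were called, against 0.00705% of all genes, with no unadjusted p under 0.05 and no call by DESeq2 or edgeR without the block. The paired fit called 1 of 9, against 2.33% of all genes. Slc2a1 had 791, 948 and 574 counts with CBD and 571, 736 and 461 with EtOH, so that the groups overlapped while the pairs all rose, by log2 ratios of 0.47, 0.37 and 0.31. The log2FC was 0.38 ± 0.065 (SE, adjusted p = 0.00236 in the paired fit of limma). The unpaired value was 0.22 without CBD library 2, 0.22 without EtOH library 3 and 0.58 without CBD library 3. Apart from Slc2a1, Hk2 and Aldoa, the members had log2FCs between -0.070 and 0.040. The groups were apart for 0 of 9 members, against 9.95% of all genes. Of the 8 astrocyte markers, the paired fit called Sox9 with a log2FC of 0.35, the sum was between 38734 and 90148 with CBD and between 41609 and 82535 with EtOH. The paired fit also called upward the endothelial marker Kdr, 1 of 3 tested, with 0.57, and the oligodendrocyte lineage marker Olig2, 1 of 8, with 0.24. The part of these markers was not tested.

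At 24 h, Slc2a1 and Hk2 were far higher with CBD in number 3, less so in number 2 and hardly in number 1. No member was called in the unpaired fit of limma, against 0.114% of all genes, or in the paired fit, while 3 had an unadjusted p under 0.05 and DESeq2 called 1, Hk2 (adjusted p = 0.00751). edgeR called 0 with and without the block. Slc2a1 had 618, 1318 and 2289.8 counts with CBD and 578, 809.9 and 524 with EtOH. CBD library 3 held the highest level of Slc2a1 of all 30 libraries. The log2FC was 0.97 ± 0.41 (SE, adjusted p = 0.498 in the unpaired fit of limma and 0.175 in the paired fit). Without CBD library 3, it was 0.53, and without CBD library 1 1.47. Hk2 had 150.1, 400.1 and 560.4 counts with CBD and 136, 143 and 133 with EtOH, without overlap. Its log2FC was 1.23 ± 0.41 (SE, adjusted p = 0.434 in the unpaired fit of limma and 0.127 in the paired fit). It was 0.83 without CBD library 3 and 1.78 without CBD library 1, and limma called it in the latter case (adjusted p = 0.00900).

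Ldha and Pgk1 had lower counts with CBD than with EtOH in each number, and neither was called. Ldha had 8751, 8847 and 6954 counts with CBD and 10980.4, 10588 and 10676 with EtOH, without overlap, a log2FC of -0.40 ± 0.11 that was not called (SE, adjusted p = 0.371 in the unpaired fit of limma and 0.109 in the paired fit). Pgk1 had 4526, 4613 and 3785 counts with CBD and 4780.3, 5172 and 4873 with EtOH, again without overlap, with a log2FC of -0.20 and a paired adjusted p of 0.224 from limma. Hk2, Ldha and Pgk1 made 3 of 9 members without overlap, against 15.9% of all genes. The CBD effect at 24 h minus that at 4 h was called by limma for 0 of 9 members in either fit, against 0% of all genes without the block, and no unadjusted p was under 0.05 without it. The astrocyte sum was between 40056 and 86209 with CBD and between 51065 and 83943 with EtOH, with no marker called, and of the neuron markers Gad1 and Gad2 were called lower, with log2FCs of -0.81 and -0.84. Their part in the levels of the members was not tested.

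The vehicles themselves were compared after their levels had been seen. The DMSO and EtOH libraries are those used above as controls. Slc2a1 and Hk2 were higher with DMSO than with EtOH at both times, and Pgk1 and Ldha at 24 h. In the unpaired fit of limma, no gene was called, so 0 of 9 members stand against 0% of all genes at 4 h and 0% at 24 h. The members with an unadjusted p under 0.05 numbered 4 at 4 h and 5 at 24 h, edgeR without the block called 0, and DESeq2 called 1 at 4 h, Hk2, and 0 at 24 h. The paired fit called 2 of 9 at 4 h, against 0.390% of all genes, and 4 of 9 at 24 h, against 0.486%. Hk2 at 4 h had 838, 747 and 291 counts with DMSO and 144, 173 and 168 with EtOH. Each DMSO library was above all EtOH libraries, and the log2 ratios were 2.53, 2.10 and 0.79. The log2FC was 1.81 ± 0.21 (SE, adjusted p = 8.05e-04 in the paired fit of limma), a level 3.50-fold higher. At 24 h, Hk2 had 351, 602 and 190.3 counts with DMSO and 132, 139 and 129 with EtOH, and was 2.56-fold higher with DMSO (paired adjusted p = 0.00744, limma).

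Slc2a1 had 1697, 1298 and 689.9 counts with DMSO at 4 h and 552, 711 and 447 with EtOH, with overlap between DMSO library 3 and EtOH library 2. Its log2FC was 1.04 ± 0.13 at 4 h (SE, paired adjusted p = 0.00140, limma) and 0.54 ± 0.091 at 24 h (paired adjusted p = 0.0144, limma). Ldha at 24 h had 14033, 20805 and 12275 counts with DMSO and 10679.8, 10325 and 10339 with EtOH. The EtOH libraries were close to each other and below all DMSO libraries, and the log2FC was 0.55 ± 0.10 (SE, paired adjusted p = 0.0245, limma). Pgk1 at 24 h was higher by 0.44 ± 0.093 on the log2 scale (SE, paired adjusted p = 0.0441, limma). Without DMSO library 2 of 24 h, the unpaired values at 24 h were 0.26 for Slc2a1, 0.33 for Ldha and 0.21 for Pgk1, and without DMSO library 3 that of Slc2a1 was 0.84. Hk1 differed by -0.010 at 4 h and 0.13 at 24 h and was not called. The groups did not overlap for 3 of 9 members at 4 h, against 9.39% of all genes, and for 4 at 24 h, against 9.86%. None of the 8 astrocyte or 10 neuron markers was called at either time in either fit of limma. Of the 5 fibroblast and pericyte markers, 2 were called lower with DMSO at 24 h in the paired fit. The sum of this list at 24 h was between 813 and 1259 with DMSO and between 1366 and 1879 with EtOH, without overlap. The part of these markers was not tested. Of 17 HIF-1 targets outside glycolysis, 17 were tested at 4 h and 16 at 24 h. The paired fit called 6 upward and 0 downward at each time, against 0.390% of all genes at 4 h and 0.486% at 24 h. The unpaired fit called none of these targets. Their median log2FC was 0.66 at 4 h and 0.35 at 24 h, with medians over all genes of -0.0048 and 0.00024. Among them were the growth factor Vegfa, with a log2FC of 0.93 at 4 h and 1.02 at 24 h, and the demethylase Kdm3a, with 1.13 and 0.45.

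**Figure D3:**
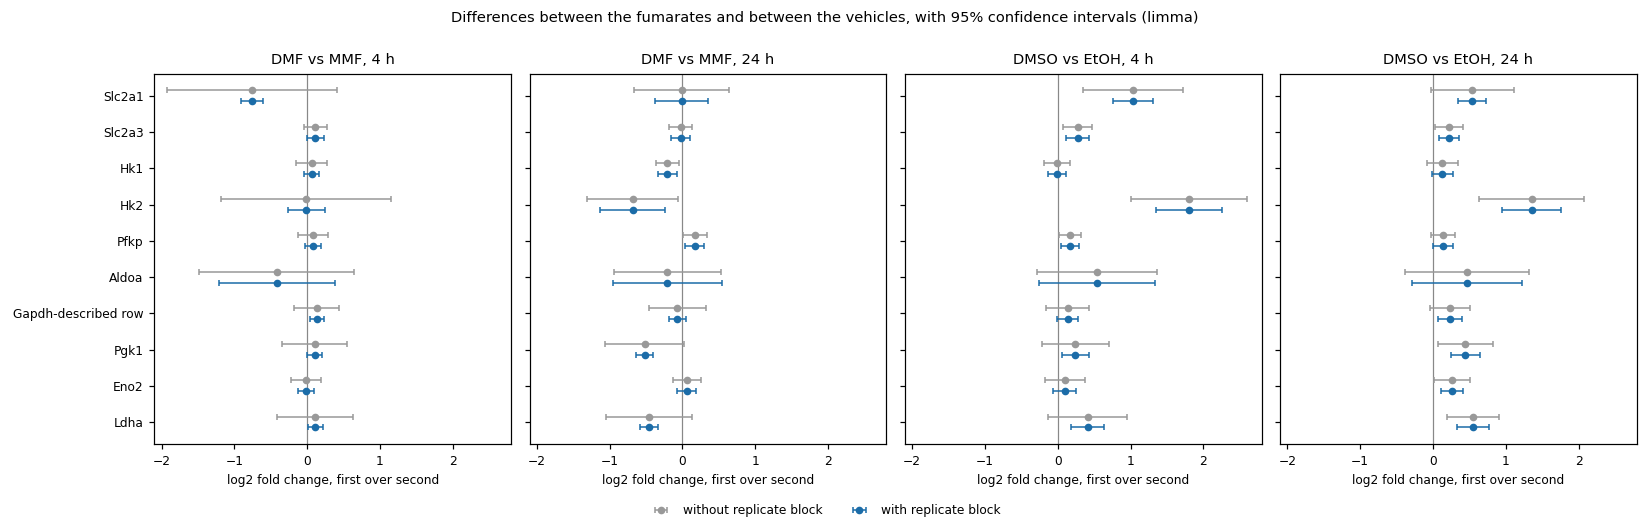
Log2 fold changes of the 9 members and the Gapdh-described row between DMF and MMF and between DMSO and EtOH, at 4 h and 24 h, with 95% confidence intervals of limma without (grey) and with (blue) the replicate block. Hk2 and Slc2a1 lie to the right in both panels of the vehicles, and the paired intervals of Pgk1 and Ldha lie left of 0 for DMF against MMF at 24 h.

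Between 4 h and 24 h, Eno2, the enolase of mature neurons, was the member that changed in the unpaired fit, with DMF. It had 8217, 9524 and 8355 counts at 24 h and 6389, 5851 and 6792 at 4 h, and all libraries of 24 h were higher. The log2FC of 0.45 ± 0.092 (SE) had an adjusted p of 0.0139 in limma without the block, which made 1 of 9 members against 15.5% of all genes. Without DMF library 2 of either time it was not called (adjusted p = 0.0604 and 0.0621, limma). With the block, 4 of 9 were called, against 32.3% of all genes. Besides Eno2, these were Slc2a1 with a log2FC of 1.02 ± 0.23 (adjusted p = 0.00664, limma), Pfkp with 0.22 ± 0.076 (adjusted p = 0.0493) and Hk2 with -0.66 ± 0.21 (adjusted p = 0.0359). The rise of Slc2a1 was the greatest in number 3, from 300.2 to 1200.4 counts, and without DMF library 3 of 4 h its log2FC was 0.47 in the unpaired fit. That of Hk2 was -1.05 without that library and -0.36 without DMF library 2 of 4 h. Astrocyte markers moved over the same interval, with 3 of 8 called upward and 2 downward in the paired fit, and Gfap at a log2FC of 1.31, which was also called without the block. The paired fit also called 2 of 10 neuron markers downward, 1 of 8 oligodendrocyte lineage markers upward and 2 downward, 1 of 5 fibroblast and pericyte markers upward and 2 downward, and 1 of 3 microglia markers tested downward. Their part was not tested.

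With MMF, Eno2 was also higher at 24 h, at 8177, 8402 and 7384 against 5797, 6039 and 6503 counts, with a log2FC of 0.39 ± 0.075 (paired adjusted p = 0.0336, limma). Pgk1 rose by 0.42 ± 0.071 (paired adjusted p = 0.0224, limma) and Ldha by 0.41 ± 0.071 (paired adjusted p = 0.0237, limma). Without MMF library 3 of 4 h, the unpaired values were 0.22 and 0.17, without MMF library 2 of 24 h 0.25 and 0.25, and without MMF library 3 of 24 h 0.64 and 0.68. These 3 of 9 stand against 1.82% of all genes, and the unpaired fit called 0, against 0%, with 2 members at an unadjusted p under 0.05 and Eno2 called by DESeq2. With MMF and the block, 3 of 8 astrocyte markers (Slc1a2, S100b and Gja1), 2 of 10 neuron markers (Nefl and Slc17a7) and 1 of 7 oligodendrocyte lineage markers tested (Olig1) were called higher at 24 h, between 0.33 and 0.52, and their part was not tested. With DMSO alone, Hk2 fell from 794, 706 and 276 to 342, 586 and 186 counts, a log2FC of -0.68 ± 0.14 (paired adjusted p = 0.0365, limma), which is 1 of 9 against 1.47% of all genes. Leaving out a library gave -1.16 to -0.26, the lowest without DMSO library 3 of 4 h and the highest without DMSO library 3 of 24 h. The pairing behind this call was weak. Deviations correlated at 0.162 or more within a number and at up to 0.185 between different numbers. With DMSO, 4 of 7 oligodendrocyte lineage and 2 of 8 astrocyte markers were called higher at 24 h in the paired fit, and their part was not tested. Eno2 with DMSO had a log2FC of 0.23 that was not called (paired adjusted p = 0.113, limma). The unpaired fit called 0 members with DMSO, CBD and EtOH, against 0%, 0% and 0% of all genes. The members with an unadjusted p under 0.05 were 1 with DMSO, 1 with CBD and 0 with EtOH, DESeq2 and edgeR without the block called none, and the paired fit called none with CBD and EtOH.

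Over the 30 libraries, after the mean of each replicate number had been removed, the members fell into patterns that are given here as descriptions. The points share the replicate numbers and the vehicle libraries, and depth was scaled by TMM. The same libraries gave the comparisons, so a gene named here that moves with its member is no separate result. Ldha and Pgk1 followed each other with a Pearson r of 0.97, and both were close to Tpi1, the triose phosphate isomerase of the same pathway, at 0.98 and 0.96, and like Higd1a, a mitochondrial protein of low oxygen, at 0.97 and 0.95. The genes most like Hk2 were Gys1 (0.93), a glycogen synthase, Ddit4 (0.92) and Vegfa (0.91). Slc2a1 was most like Shc4 (0.86), Bhlhe40 (0.83) and Lonp1 (0.81), and its r with Ldha was only 0.22. Slc2a3 was most like Gpi (0.89), the Gapdh-described row (0.87) and Pfkp (0.85). The Gapdh-described row was most like Gpi (0.96), Eno1 (0.92) and Gls2 (0.91). Eno2 was most like Ddn (0.87), Gsn (0.85) and Lysmd1 (0.84), Pfkp like Bend6 (0.86), Necap1 (0.86) and Slc2a3, and Hk1 like Iglon5 (0.80), Mpp3 (0.80) and Ttbk1 (0.79). At its low counts, Aldoa was most like Coro6 (0.78), Pcgf2 (0.63) and Tnks1bp1 (0.61).

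The other genes of the pathway were read from the same fits. Of 18 other glycolytic enzymes, between 16 and 17 were tested, and the unpaired fit of limma called none in the 6 comparisons with vehicle. In the paired fit, MMF at 24 h went with 3 of 16 upward and 0 downward, against 1.38% of all genes, namely Pkm with a log2FC of 0.31 ± 0.050, Tpi1 with 0.37 ± 0.073 and Gpi with 0.23 ± 0.047 (SE). With DMF, 2 of 17 were called at 4 h, against 23.0% of all genes, and 2 of 16 at 24 h, against 12.9%, so these shares did not exceed the background. Tpi1 rose by 0.28 at 4 h, and the ADP-dependent glucokinase Adpgk fell by 0.56 at 4 h and rose by 0.29 at 24 h, while Ldhb, the lactate dehydrogenase of oxidative cells, fell by 0.29 at 24 h. The paired fit called no enzyme with MMF at 4 h or with CBD. Against MMF at 24 h, DMF went with 8 of 16 lower and 0 higher in the paired fit, against 12.2% of all genes called there, and 0 were called in the unpaired fit. The median log2FC was -0.23, against -0.0084 over all genes. The 8 were Gpi, Pfkl, Aldoc, Tpi1, Pgam1, Eno1, Pkm and Ldhb.

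Of 15 other transporters of glucose and monocarboxylates, between 10 and 12 were tested, and 2 were called without the block in the comparisons with vehicle. Slc2a2 (GLUT2) was higher with DMF at 4 h by a log2FC of 2.21 ± 0.29 (SE, adjusted p = 0.0124, limma), and Slc2a9, a urate carrier, with DMF at 24 h by 1.31 ± 0.30 (SE, adjusted p = 0.0454, limma). With DMF at 24 h, where the paired fit called 12.9% of all genes and 5 of 11 transporters tested, it also called the lactate exporter Slc16a3 with a log2FC of -1.46, Slc2a10 with -1.05, Slc2a6 with -0.43 and Slc16a1, another monocarboxylate carrier, with 0.34. Of 21 regulators of glycolysis and pyruvate entry, 19 were tested. Pdp2, a phosphatase that activates pyruvate dehydrogenase, was lower with DMF at 4 h, with a log2FC of -0.90 ± 0.13 (SE, adjusted p = 0.0193, limma) and was the only regulator called without the block in the 6 comparisons with vehicle. With the block, 3 of 19 were called with DMF at 4 h, against 23.0% of all genes, which were Pdp2, the pyruvate dehydrogenase kinase Pdk2 with a log2FC of -0.21 and Mlxip, a glucose-sensing factor, with 0.31. With DMF at 24 h, 3 of 19 were called, against 12.9%, which were Pfkfb2 with 0.23, the pyruvate dehydrogenase subunit Pdha1 with -0.23 and Txnip. With CBD at 4 h, 3 of 19 were called, against 2.33%, namely Pfkfb3, Txnip and Pdp2, the last with -0.37. Pfkfb3, which makes the activator of phosphofructokinase, was higher with MMF at 24 h by 0.25, as 1 of 19 against 1.38%, and with CBD at 4 h by 0.31. Txnip, which limits glucose uptake, was higher with DMF at 24 h by 0.36 and with CBD at 4 h by 0.30.

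Of the 17 HIF-1 targets outside glycolysis, the unpaired fit called none in the 6 comparisons. The paired fit called 7 of 17 upward and 0 downward with MMF at 24 h, against 1.38% of all genes, and their median log2FC was 0.34, against -0.00017 over all genes. These were Vegfa with 0.39, the hormone precursor Adm with 0.76, the mitophagy receptor Bnip3 with 0.41, the collagen hydroxylase P4ha1 with 0.34, Higd1a with 0.34, the mTORC1 inhibitor Ddit4 with 0.24 and the repressor Bhlhe40 with 0.41. With DMF at 4 h the paired calls were also 7 of 17, against 23.0% of all genes, and went both ways, with P4ha1, Car9, Kdm3a and Mxi1 upward and Bnip3l, Egln3 and Bhlhe40 downward. Bhlhe40, the gene with the second highest likeness to Slc2a1, had a log2FC of -0.41 with DMF at 4 h and 0.83 at 24 h, and of 0.44 with CBD at 4 h, each called in the paired fit. That likeness was taken over these same libraries, so moving as Slc2a1 does is no separate result. The same holds for Vegfa and Ddit4, named above as most like Hk2, and for Higd1a, named as like Ldha and Pgk1. The activity of HIF-1 was not tested. Adm and Mxi1 were the other HIF-1 targets called with DMF at 24 h, both upward, which made 3 of 16 against 12.9% of all genes. Vegfa was the other with CBD at 4 h, at 0.25, which made 2 of 17 against 2.33%. None was called with MMF at 4 h or CBD at 24 h.

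With MMF at 4 h and CBD at 24 h, no gene of the 4 lists was called in either fit, and the gene with the smallest p of each list is given. With MMF at 4 h these were Pklr, a pyruvate kinase, with a log2FC of -0.20, Slc2a12 with -0.45, the pyruvate dehydrogenase kinase Pdk4 with -0.73 and Ankrd37 with 0.50. With CBD at 24 h they were Ldhb with -0.31, Slc16a1 with 0.74, the pyruvate dehydrogenase subunit Pdha1 with -0.38 and P4ha2 with -0.39.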

How the data were processed

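Primary rat hippocampal neurons were analysed by RNA-seq of poly(A)+ RNA in 30 libraries. The authors used FastQC 0.12.1, cutadapt 4.4, Trimmomatic 0.39, HISAT2 2.2.1 with mRatBN7.2, HTSeq 2.0.3 and DESeq2 1.40.2, in R 4.3.1. The tables hold normalized counts (unit signal), which the authors made by dividing the counts of each gene by a size factor per library and deposited for 6 libraries at a time. Their columns of fold changes and p-values were not used. Of the tables, 15 were used and 4, which set CBD against DMF or MMF in another vehicle, were not.

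Dividing by the size of 1 read gave whole reads for 100.0% of 1784684 values (tolerance 0.01 of a read), between 15108132 and 25367834 per library. With limma 3.58.1 (trend, R 4.3.3), log2(value + 1) was compared between groups of 3 after edgeR's filter on low counts, with Benjamini-Hochberg adjustment over the 13967 to 14503 genes tested, so that a log2FC understates the change of low genes. edgeR 4.0.16 and DESeq2 1.42.0 were run on the recovered reads, which are whole. Levels over all groups used 1 set of size factors.

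Libraries of the same number deviated together in the 15 comparisons of 2 groups. The correlations of their deviations from the group means were between 0.129 and 0.668, each above the minimum of 0.1, and the highest between different numbers was 0.19. For MMF against DMSO at 4 h, the lowest within a number was 0.129 and the highest between different numbers 0.134. For DMSO between the times, these were 0.162 and 0.185, so the pairing is weak in both comparisons. The numbers were therefore taken to pair the libraries, and the fit with the number as a block is given beside the other. In data simulated for DMF against DMSO at 4 h (14208 genes, 200 changed by a log2 of 1), limma without the block called 153, of which 147 were changed, or 73.5% of those changed. The simulated libraries held no deviation shared within a replicate number. The paired fit was not run on them, so its recovery is not known.

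Groups came from the labels. The members and gene lists were chosen with earlier results of these data known. All members were to be named, with the genes of the wider lists that were called against vehicle or had the smallest p and the 3 genes most like each member. Genes called only in the paired fit, and those in other comparisons, were named after their values were seen. The comparison of the vehicles, its alternatives and edgeR with the block were added after seeing the data. Other alternatives were TMM scaling, no filter, a pseudocount of 0.1, edgeR, DESeq2, a spread from all 30 libraries and leaving out each library. Intervals are 95% confidence intervals.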

Additional observations from a re-analysis of the deposited data

Results flagged for a closer look

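The effect of DMF on Slc2a1 differed between 24 h and 4 h by 1.35 on the log2 scale in the paired fit of limma (adjusted p = 0.0101), but not in the unpaired fit (adjusted p = 0.238). Leaving out a library gave 0.81 to 1.72.

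For 3 other members, each number moved one way at 4 h and the opposite way at 24 h, and the direct test of the difference in limma was not passed. For Eno2 with DMF, the difference was 0.22 (adjusted p = 0.380 without and 0.208 with the block). For Slc2a3 with MMF it was 0.19 (adjusted p = 1.00 without and 1.00 with the block), and for Hk2 with MMF 0.71 (adjusted p = 1.00 without and 1.00 with the block).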

How the results depend on the processing

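The replicate block decided most calls of the members. With the block in limma, the number called against vehicle was 2 for DMF at 4 h, 1 for DMF at 24 h, 4 for MMF at 24 h and 1 for CBD at 4 h, in place of 0. It was 1 for DMF against MMF at 4 h and 3 at 24 h, 2 for DMSO against EtOH at 4 h and 4 at 24 h, and 1 for the difference of the DMF effect between the times. Between the times it was 4 with DMF in place of 1, 3 with MMF and 1 with DMSO. With the block in edgeR, the counts were the same except for 4 with DMF against MMF at 24 h. The block changed no other count of calls.

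Without the block, DESeq2 called 1 member for CBD at 24 h, for DMF against MMF at 24 h, for MMF between the times and for DMSO against EtOH at 4 h, and 2 for DMF between the times, where the spread from all 30 libraries also gave 2. Leaving out a library gave 0 to 1 calls for DMF at 24 h, CBD at 24 h, DMF against MMF at 24 h and DMSO against EtOH at 4 h, and 0 to 3 for DMF between the times. The calls at 1 were Pfkp without DMF 24 h replicate 3, Hk2 without CBD 24 h replicate 1, Hk2 without MMF 24 h replicate 3 and Hk2 without DMSO 4 h replicate 3 (2.29). The 3 calls, without DMF 4 h replicate 3, were Slc2a1, Hk2 and Eno2. The log2FCs without a library were followed where limma called the row in either fit. Slc2a1 and Hk2 with CBD at 24 h were followed too, and other log2FCs were not. Of those followed, only that of Pgk1 for DMF at 4 h changed sign. It ranged over -0.037 to 0.31 and was lowest without DMSO 4 h replicate 3. This was in the unpaired fit, where the DMF library of the same number stayed in. Within the pairs, DMF was the higher for Pgk1 in each number. The cause was not tested. TMM scaling, no filter and the pseudocount of 0.1 changed no count of calls. The groups hold 3 libraries each, which limits both fits, and the low counts of Aldoa limit its precision.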
